A study of Mus musculus with 6 samples.

Results

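Complement genes were compared between cultures labelled as aortic endothelial cells from female and from male wild-type mice. The 7 genes were chosen by gene name, C1ra, C1s1, C2, C3, C4b, Cfb and Cd55, and each had 1 row among the 54532 genes of the count table. Poly-A RNA was sequenced from 3 female and 3 male libraries. All came from untreated cultures, entered in the labels as cell line MAEC and kept in serum with heparin and endothelial growth factors, and the labels give neither strain nor age, nor whether replicates were separate animals or cultures. The p-values therefore measure only the spread between these libraries, which may be technical. The female libraries held 17410996 to 22993574 counts and the male libraries 18138999 to 22897700.

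Complement is a cascade of plasma proteins that marks and punctures foreign or damaged cells. In the classical pathway the proteases C1r and C1s, bound to C1q, cleave C4 and C2, whose fragments form the enzyme that cleaves C3. In the alternative pathway factor B pairs with C3 fragments to form another such enzyme, and CD55 (decay-accelerating factor) on the cell surface takes both enzymes apart. The liver makes most of the circulating components, and fibroblasts, macrophages and endothelial cells also make several of them.

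The endothelial label was not borne out by the defining markers. Of 15 endothelial genes, 14 stayed under 1 CPM (counts scaled to library size) in every library, and Cdh5, Tie1, Cldn5 and Robo4 had 0 counts in all 6. The summed level of 12 fibroblast markers was 11883 to 12749 CPM (female) and 6550 to 7151 CPM (male). Col3a1 was the largest part of the sum (4981 ± 227 and 2016 ± 166 CPM). Of 11 tested, 6 were called higher and 1, Thy1, lower, beside 9.68% and 8.62% of all tested genes. Pdgfra, 1 of the 6, lost its call without any of the female libraries or male replicate 2 (edgeR adjusted p = 0.133 to 0.183, 1 library left out at a time). It also did so under some other settings, and the rest of the 6 kept theirs under all 16 alternatives. Thy1 had 206 ± 5.27 CPM (female) and 290 ± 43.3 CPM (male), with adjusted p = 0.0208 by edgeR. Its call was lost on leaving out the same libraries (edgeR adjusted p = 0.0595 to 0.0916). Fap (11.4 ± 2.50 and 16.6 ± 0.141 CPM, not called) and S100a4 (0.0375 ± 0.0650 and 0.406 ± 0.161 CPM, not tested) were also lower in every female library. Of 13 macrophage markers, 9 stayed under 1 CPM, and Ptprc (CD45), C1qa, C1qb, C1qc, Fcgr1 and Tyrobp had 0 counts in all 6 libraries. The summed macrophage list was nevertheless 29.5 to 38.4 CPM (female) and 12.9 to 19.6 CPM (male), with the monocyte genes Cd14 at 17.9 ± 2.83 and 7.71 ± 1.26 CPM and Lyz2 at 12.7 ± 2.45 and 5.23 ± 1.94 CPM in the same order. Of the same list, Csf1r (0.331 ± 0.192 and 0.874 ± 0.254 CPM, not called) and Mrc1 (0.0152 ± 0.0264 and 0.440 ± 0.162 CPM, not tested) were lower in every female library. Hepatocyte markers summed to 0.281 to 1.75 CPM (female) and 1.02 to 1.59 CPM (male). Summed smooth muscle markers stood at 119 to 121 CPM (female) and 142 to 177 CPM (male), and mesothelial markers at 7.49 to 11.2 and 2.13 to 4.04 CPM in the same order. The smooth muscle sum and the female mesothelial sum each rested largely on 1 gene. In male libraries Krt19 was the largest part of the mesothelial sum (1.41 ± 0.601 CPM in female and 1.54 ± 0.526 CPM in male, not called). Smtn held most of the smooth muscle sum (112 ± 2.04 and 130 ± 12.6 CPM, not called), whereas Acta2, the smooth muscle actin gene, was called lower, with 3.23 ± 0.750 CPM (female) and 20.4 ± 6.01 CPM (male) (adjusted p = 7.60e-05 by edgeR). Krt18, a keratin gene, set the direction of the mesothelial sum (7.51 ± 1.40 and 0.504 ± 0.25 CPM), whereas Msln, Upk3b and Upk1b had 0 counts in every female library and 1 to 10 counts in each male library. The part of such cells in the differences below was not tested, and in bulk RNA fewer cells of a type and less RNA per cell cannot be told apart.

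The C3 and C4b transcripts were lower in female than in male libraries, by 2.30- and 2.24-fold, and C1ra was lower by 1.41-fold. By edgeR, 3 of the 6 genes tested were called lower in female (adjusted p under 0.05 over all genes), where 8.62% of the 14932 tested genes were. None was called higher, where 9.68% of tested genes were. The number higher was 3 at an unadjusted p under 0.05, 1 by DESeq2 and 3 by limma-voom with quality weights. The 9.68% does not apply to those counts. Over the 14932 tested genes limma-voom called 3305 higher, and DESeq2 also called more of them higher than edgeR did. The share of all genes higher at the unadjusted p is not given here. Cfb did not pass the filter on low counts. The sexes did not overlap in CPM for 6 of the 7 genes, a pattern found in 35.9% of tested genes, and calls in either direction took 18.3% of them. The median log2 fold change (female over male, here and throughout) of the 6 genes was -0.12, beside -0.01 over all tested genes.

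**Figure D1:**
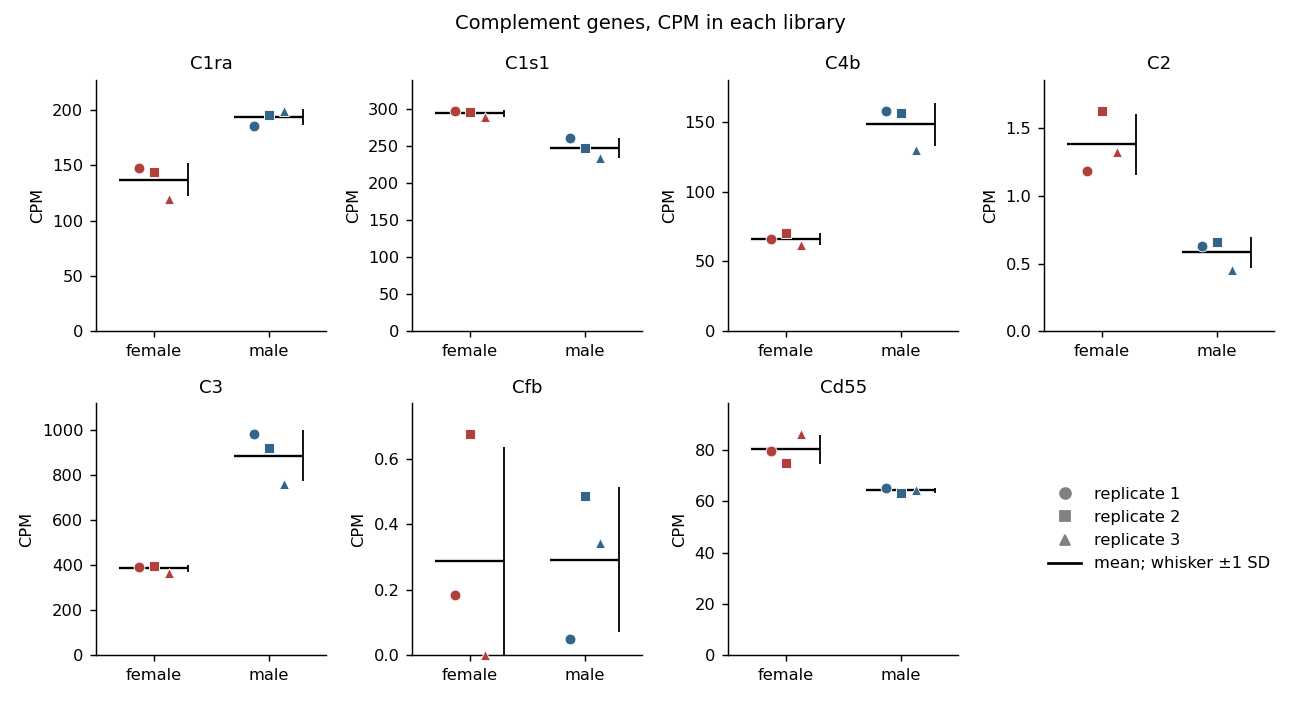
Level of each complement gene in CPM (vertical axes, linear from 0) in the 3 female and 3 male libraries, with symbols for the replicates, the mean as a line and 1 SD as a whisker, which for Cfb is cut off at 0. C3, C4b and C1ra lie lower in every female library, C1s1, C2 and Cd55 lie higher in every female library, and Cfb overlaps.

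The promoter windows of 3 of the genes are shown because C3 and C1ra were called lower while C1s1, the neighbour of C1ra, was not. They come from RefSeq (GRCm38.p6), which matched 4 of the 7 genes (C1ra, C1s1, C3 and Cd55), and run from 250 bases before to 50 bases after the annotated start. Sequences are on the gene's strand, 5′ to 3′. Capitals mark matches on either strand to 4 motifs searched by letters. These were TTNNGNAA of the C/EBP family, TTCNNNGAA (the GAS element bound by STAT dimers), GAAANNGAA (the core of the interferon-stimulated response element, ISRE) and GGGANNTTC (an NF-kappaB site). C3 lies at chr17:57228087-57228386, C1ra at chr6:124512371-124512670 and the upstream of 2 listed C1s1 windows at chr6:124542310-124542609. The RefSeq start used for C1ra lies inside the gene as deposited, which begins at 124512405, and so does most of its window.
C3: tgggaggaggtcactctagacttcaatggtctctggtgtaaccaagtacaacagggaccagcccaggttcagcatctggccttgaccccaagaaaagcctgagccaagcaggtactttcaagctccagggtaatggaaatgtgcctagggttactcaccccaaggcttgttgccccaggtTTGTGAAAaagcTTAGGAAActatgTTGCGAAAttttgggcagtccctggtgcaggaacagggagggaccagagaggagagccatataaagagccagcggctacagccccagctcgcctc
C1ra: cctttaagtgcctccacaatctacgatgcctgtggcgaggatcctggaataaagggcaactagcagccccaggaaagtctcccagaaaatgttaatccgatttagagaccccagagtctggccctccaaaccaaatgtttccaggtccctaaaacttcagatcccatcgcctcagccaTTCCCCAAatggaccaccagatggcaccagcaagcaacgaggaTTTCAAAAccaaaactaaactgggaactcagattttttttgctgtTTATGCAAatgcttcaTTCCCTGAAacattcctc
C1s1: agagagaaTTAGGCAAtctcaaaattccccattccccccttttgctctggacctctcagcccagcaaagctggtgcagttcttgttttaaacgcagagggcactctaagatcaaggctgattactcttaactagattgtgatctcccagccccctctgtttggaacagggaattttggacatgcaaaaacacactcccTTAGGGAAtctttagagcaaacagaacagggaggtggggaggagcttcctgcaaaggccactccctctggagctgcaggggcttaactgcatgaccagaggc

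In the C3 window the C/EBP letters occurred 3 times, at positions -70 to -63, -58 to -51 and -45 to -38 from the start, the last of them on both strands. The C1ra window held 3 C/EBP matches and 1 GAS match at positions 33 to 41 from its RefSeq start. The C1s1 window held 2 C/EBP matches. The Cd55 window held none of the 4 motifs, and the ISRE and NF-kappaB letters were in none of the windows. Of all 32851 promoter windows, 40.7% held the C/EBP letters, 8.30% the GAS letters, 8.56% the ISRE letters and 3.94% the NF-kappaB letters. These matches describe letters, not binding.

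C1ra and C1s1 encode the paired serine proteases of the C1 complex and lie on chromosome 6 on opposite strands, C1ra at 124512405 to 124523443 (plus) and C1s1 at 124530345 to 124542359 (minus). C1ra had 147, 144 and 119.7 CPM in female libraries, against 186, 195 and 199 CPM in male libraries. It was lower in every female library, and its log2 fold change was -0.50 ± 0.11 (SE; adjusted p = 0.0124 by edgeR). The call was lost without female replicate 3 (edgeR adjusted p = 0.0659) and without male replicate 2 (edgeR adjusted p = 0.0546).

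C1s1 had 298, 296 and 289 CPM in female libraries and 261, 248 and 234 CPM in male libraries. The sexes did not overlap, yet the gene was not called (log2 fold change 0.25 ± 0.10, edgeR adjusted p = 0.122, with an unadjusted 95% interval of 0.03 to 0.47). On the opposite strand Gm16567, with 0 counts in all libraries, covers 18.4% of the exonic bases of C1s1. The ratio of C1s1 to C1ra within a library, on CPM per kilobase of gene length, does not depend on scaling between libraries. It was 2.06 ± 0.209 in female and 1.22 ± 0.109 in male libraries (SD, n = 3 each), and every female library lay above every male one.

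Both proteases have a duplicated copy in the mouse. C1rb had 0.229, 0.394 and 0.299 CPM in female libraries and 1.07, 1.15 and 0.968 CPM in male libraries. The log2 fold change was -1.78 ± 0.49 (adjusted p = 0.0309 by edgeR). That call rested on 5 to 26 counts a library and was lost on leaving out any library except male replicate 3 (edgeR adjusted p = 0.0806 to 0.135). Among 100-base stretches of C1ra transcripts, 34.5% also occur in C1rb transcripts, so the split of reads between them is uncertain. C1rb counts came to 0.155 to 0.273% of C1ra counts in female and 0.485 to 0.588% in male libraries. C1s2 had 1.18 ± 0.313 CPM (female) and 1.10 ± 0.501 CPM (male) and was not called. With the counts of each duplicated copy added to those of the gene itself, the same number of genes, 3, was called lower.

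C4b encodes C4, the substrate of C1s, and lies on chromosome 17 (34728380 to 34743882, minus strand) in the part of the mouse MHC that also holds C2 and Cfb. C4b had 66.3, 70.3 and 61.8 CPM in female libraries, against 158, 156 and 130.1 CPM in male libraries. Every female library was below every male one, and C4b had a fold change of -1.16 ± 0.12 in log2 units (adjusted p = 8.83e-05 by edgeR). Its neighbour C4a encodes the sex-limited protein, named for its restriction to male serum in some mouse strains. C4a had 0.823, 1.41 and 0.898 CPM in female libraries, beside 1.16, 1.24 and 0.626 CPM in male libraries, with overlap between the sexes. Its log2 fold change was 0.03 ± 0.46, with a 95% interval of -0.999 to 1.05. Of 100-base stretches of C4b transcripts, 16.5% also occur in C4a transcripts.

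C2 encodes the protease that joins C4 in the classical enzyme, and Cfb encodes its relative factor B. They lie end to end on chromosome 17, Cfb at 34856374 to 34862518 and C2 at 34862604 to 34898265, both on the minus strand. C2 had 26, 29 and 31 counts in female libraries and 13, 15 and 8 counts in male libraries, or 1.19, 1.63 and 1.33 CPM and 0.630, 0.663 and 0.456 CPM. The female libraries were all higher, but at these counts C2 was not called (log2 fold change 1.22 ± 0.42, edgeR adjusted p = 0.0768, unadjusted 95% interval 0.28 to 2.17).

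Cfb had 4, 12 and 0 counts in female libraries and 1, 11 and 6 counts in male libraries. A count of 0 in female replicate 3 allows up to 0.128 CPM, taking 3 counts as the limit, which covers counting error only. The sexes overlapped, and a difference was not detectable at these counts. Another annotated gene, Gm20547, runs through both on the same strand and had 0 counts in all 6 libraries. Its exons cover 79.5% of the exonic bases of Cfb and 42.8% of those of C2 in the GENCODE M21 annotation. How the authors counted reads that fall on 2 genes is not given in the sources used here. Since Gm20547 had 0 counts, no read on the shared bases was counted for both it and C2 or Cfb. Whether such reads were left out of the C2 and Cfb counts was not tested. C2 also shares 4.16% of its exonic bases with Zbtb12 on the opposite strand, which had 153 to 294 counts a library.

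C3, the component on which all pathways meet, lies on chromosome 17 as well (57203970 to 57228136, minus strand), far from the other 3. It had 393, 395 and 366 CPM in female libraries, against 981, 921 and 758 CPM in male libraries. The female libraries were close together and all below the male ones, of which replicate 3 was lowest. C3 averaged 385 ± 16.1 CPM in female libraries, beside 886 ± 115 CPM in male libraries (SD, n = 3 each), and its fold change was -1.20 ± 0.12 in log2 units (adjusted p = 0.000108 by edgeR). Male replicate 3 was the library least like the rest of its sex. Its counts differed from male replicates 1 and 2 by a chi-square per degree of freedom of 70.8 and 48.4. Male replicates 1 and 2 differed by 12.0. The correlation of log2 CPM between male replicates 1 and 3 was 0.977, where pairs of female libraries reached at least 0.992. Without male replicate 3 the log2 fold change was -1.31 for C3 and -1.25 for C4b. No 100-base stretch of C3 transcripts occurs in another gene, and no exonic base of C3 overlaps one.

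C3 and C4b kept almost the same proportion in both sexes. The ratio of C4b to C3 on CPM per kilobase was 0.155 ± 0.00481 in female and 0.151 ± 0.00504 in male libraries (SD, n = 3 each), with overlap. The ratio of C3 to C1s1 was 0.795 ± 0.0222 in female and 2.17 ± 0.177 in male libraries. Likeness of profile was measured as the root mean square difference of log2(CPM + 1), each gene centred on its mean over the 6 libraries. By this measure C4b was the gene closest to C3 among all tested, and C3 the closest to C4b (0.0445), followed for both by Pdgfrb, a growth factor receptor gene (0.0528 from C3 and 0.0562 from C4b). The closest to C1ra were Syngr1 and Pfkp (0.0319 and 0.0332), to C1s1 Selenon and Pik3cb (0.0228 and 0.0295), to Cd55 Gmnn and Lacc1 (0.0188 and 0.0267) and to C2 Cdk5rap2 and Efcab2 (0.0475 and 0.0487). C2 lay near the added 1 CPM, which shrinks its differences on this scale, and its closest genes had log2 fold changes of 0.56 and 0.71 beside 1.22 for C2. Next came Bmper for C3, Amotl2 for C4b, Pitpnm1 for C1ra, Wdtc1 for C1s1, Pfn2 for Cd55 and Nubpl for C2.

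**Figure D2:**
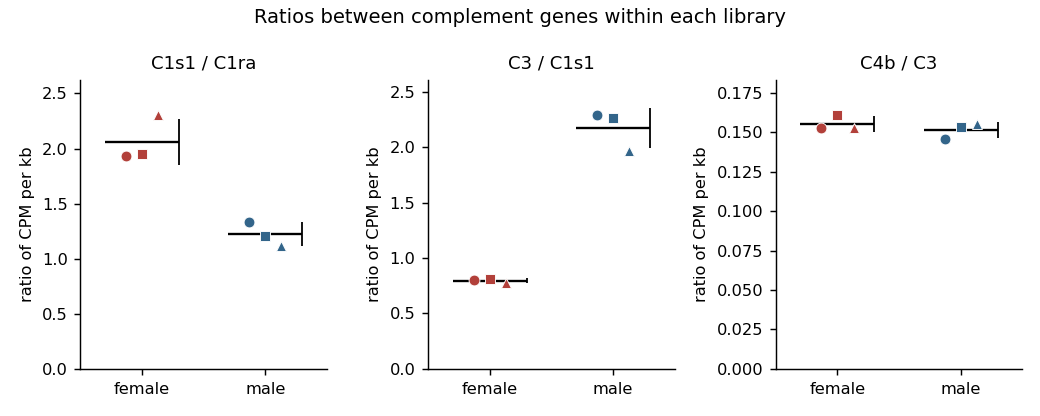
Ratios between genes within each library, from CPM per kilobase (vertical axes, linear from 0), in the 3 female and 3 male libraries, with the mean as a line and 1 SD as a whisker. C4b over C3 overlaps between the sexes, while C1s1 over C1ra is higher and C3 over C1s1 is lower in every female library.

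Cd55, on chromosome 1 (130439027 to 130462744, minus strand), is the membrane regulator among the 7. It had 79.6, 75.1 and 86.2 CPM in female libraries and 65.2, 63.2 and 64.5 CPM in male libraries. All female libraries were above all male ones, and the gene lay just outside the threshold (log2 fold change 0.32 ± 0.10, edgeR adjusted p = 0.0607, unadjusted 95% interval 0.09 to 0.55). Without male replicate 3 it was called (0.32, edgeR adjusted p = 0.0152), as it was by DESeq2 (adjusted p = 0.0400) and by limma-voom with quality weights (adjusted p = 0.00413). Its duplicate Cd55b, which shares 4.92% of the 100-base stretches of Cd55, had 0 counts in all 6 libraries.

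The order of the genes by level per kilobase differed between the sexes. In female libraries C1s1 stood first with 94.1 ± 1.46 CPM per kilobase, before C3 with 74.8 ± 3.13 and C1ra with 46.0 ± 5.06. In male libraries C3 stood first with 172 ± 22.4 CPM per kilobase, before C1s1 with 79.1 ± 4.24 and C1ra with 64.9 ± 2.34. Cd55 (16.5 ± 1.16 CPM per kilobase) preceded C4b (11.6 ± 0.749) in female libraries and followed it in male libraries, where C4b had 26.0 ± 2.74 and Cd55 13.3 ± 0.215. Neighbours in these orders did not overlap, except C2 and Cfb in male libraries. Averaged over the 6 libraries, C3, C1s1 and C1ra exceeded 97.9%, 96.8% and 94.5% of tested genes per kilobase, C4b and Cd55 82.2% and 77.9%, and C2 and Cfb only 5.81% and 1.24%. The lengths of C2 and Cfb include the bases shared with Gm20547 (42.8% and 79.5%). If reads there were not counted, the levels and places of C2 and Cfb are too low, which was not tested.

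**Figure D3:**
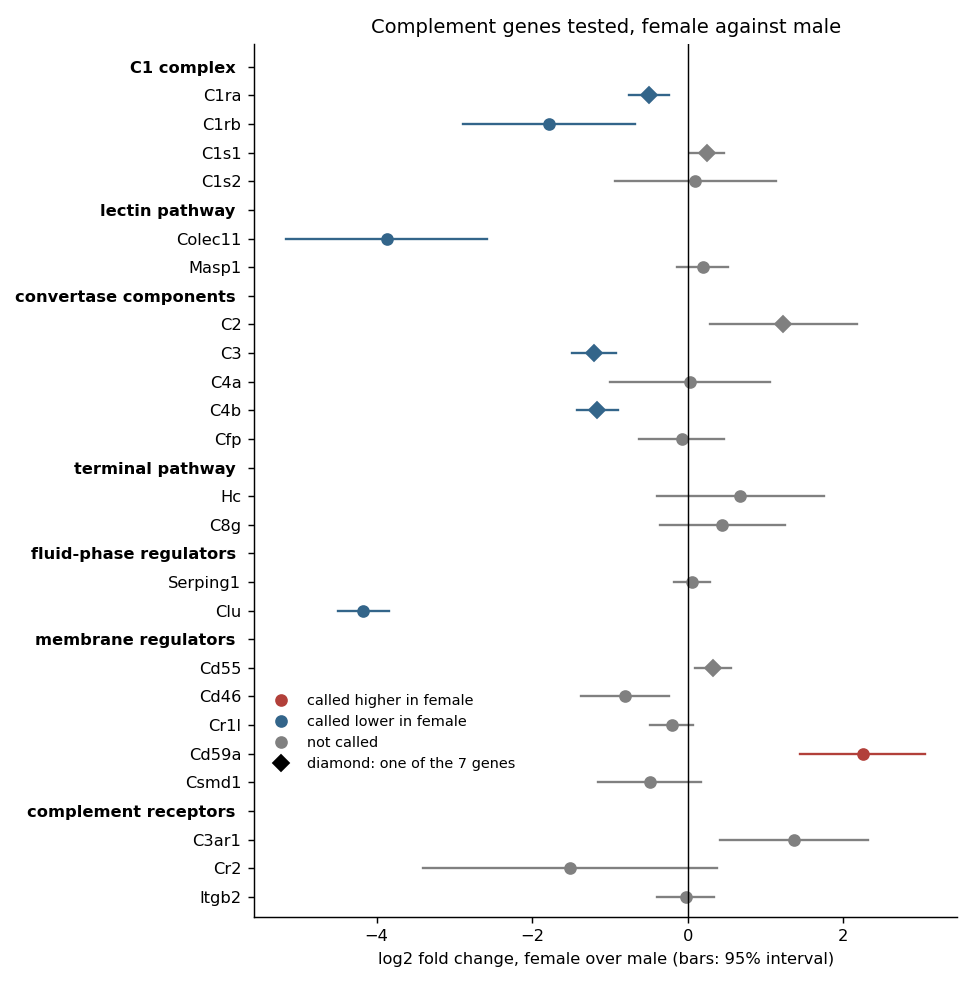
Log2 fold change of female over male (horizontal axis) with its unadjusted 95% interval for complement genes tested by edgeR, grouped by role, with diamonds for members of the group of 7. The 6 genes called lower and the 1 called higher are coloured.

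Across a wider list of 53 complement genes, 30 genes stayed under 1 CPM in every library, 15 of them with 0 counts in all 6. Of all 54532 genes, 39932 stayed under 1 CPM and 28649 had 0 counts. Of the 24 tested, 1 was called higher, 6 lower and 17 were not called, with a median log2 fold change of -0.05, where 9.68% of all tested genes were called higher and 8.62% lower. Leaving out male replicate 3 gave 3 called higher and 9 called lower, beside 2508 and 2543 over all tested genes. Apart from the 6 genes above, the other 18 gave 1 call higher and 3 lower.

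Among initiating components, no C1q chain gene had a count, although the C1 protease genes were among the more abundant of the list. Masp1, a protease of the lectin pathway, averaged 60.6 ± 3.94 CPM in the female cultures and 53.0 ± 10.2 CPM in the male ones and was not called. Colec11, a collectin that recognises sugars, fell to 0.131 ± 0.0772 CPM in female, against 1.95 ± 0.509 CPM in male (edgeR adjusted p = 0.00111). Cfd, the factor D protease that activates factor B, had 0 counts in all 6 libraries. The properdin gene Cfp, which stabilises the alternative enzyme, had 5.41 ± 1.47 CPM (female) and 5.68 ± 0.888 CPM (male). Of the terminal components, which form the pore, Hc (C5) had 2.36 ± 1.47 CPM in female libraries, beside 1.45 ± 0.372 CPM in male libraries and C8g 2.74 ± 0.435 and 1.99 ± 0.814 CPM, neither called. C6, C7, C8a, C8b and C9 stayed under 1 CPM.

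Of 8 fluid-phase regulators, 3 were tested and 1, Clu, was called. The C1 inhibitor gene Serping1 stood at 200.3 ± 5.57 CPM in the female cultures and 193 ± 14.7 CPM in the male ones. Clu, encoding clusterin, which blocks pore assembly, fell to 17.1, 18.9 and 18.6 CPM in the female cultures, against 294, 307 and 385 CPM in the male ones (a log2 difference of -4.17 ± 0.14, adjusted p = 2.25e-07 by edgeR).

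On the membrane, Cd59a, which also blocks the pore, rose to 3.98, 4.78 and 3.55 CPM in female, against 1.11, 0.972 and 0.456 CPM in male (a log2 difference of 2.25 ± 0.36, adjusted p = 0.00173 by edgeR). Cr1l (Crry, the widespread rodent regulator of the C3-cleaving enzymes) had means of 60.2 ± 6.38 CPM (female) and 69.5 ± 6.66 CPM (male) and Csmd1 33.2 ± 7.22 and 46.6 ± 19.4 CPM, neither called. Csmd1 was called lower without male replicate 3 (log2 fold change -0.79, edgeR adjusted p = 0.000244, beside -0.49 with all libraries), with no filter and by limma-voom. Cd46, a cofactor for cleaving C3 fragments, averaged 3.14 ± 0.280 CPM in female cultures, beside 5.49 ± 1.44 CPM in male cultures (edgeR adjusted p = 0.0557, and 0.00320 without male replicate 3). Among receptors, C3ar1, for the C3a fragment, averaged 3.00 ± 0.389 CPM in female cultures, beside 1.16 ± 0.714 CPM in male cultures (log2 fold change 1.36 ± 0.42, edgeR adjusted p = 0.0532, 0.00608 without male replicate 1 and 0.0354 without male replicate 3). It was also called higher with the replicate block, by DESeq2 and limma-voom, with no filter and with the length and GC offset. Itgb2, the beta chain of complement receptors 3 and 4, had 15.2 ± 2.06 and 15.5 ± 2.01 CPM in the same order, and its partner Itgam had 0 counts in all 6 libraries.

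None of the tested genes around C4b, Cfb and C2 was called lower, where 8.62% of all tested genes were and 9.68% were higher. So few genes cannot set the neighbourhood apart from those shares. Within 50 kb of the 3 genes, 9 other genes were tested, of which only Neu1, a lysosomal sialidase gene, was called, and it was higher (42.1 ± 2.99 CPM in female, 25.2 ± 3.48 CPM in male libraries, edgeR adjusted p = 0.00416). Tnxb, next to C4b, differed by -0.36 ± 0.20 in log2 units (adjusted p = 0.284 by edgeR). C4a, Stk19, Dxo, Skiv2l, Nelfe, Zbtb12 and Ehmt2 lay between -0.04 and 0.19.

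Genes known to act on complement transcription, and acute phase genes often induced with it, were called in both directions. The shares over all tested genes were 9.68% higher and 8.62% lower. Of 13 transcription factor genes, 3 were called higher and 1 lower. Among those higher, Stat2 and Irf9, which act in interferon signalling, rose by 1.46 ± 0.13 and 1.41 ± 0.14 on the log2 scale (adjusted p = 3.29e-05 and 8.27e-05 by edgeR). Cebpa fell by 1.05 ± 0.17 (edgeR adjusted p = 0.00185). The more abundant Cebpb (306 ± 44.6 CPM in female and 249.8 ± 83.3 CPM in male) and Cebpd (370.0 ± 21.7 and 282 ± 60.6 CPM) were not called, with log2 fold changes of 0.29 ± 0.22 and 0.39 ± 0.15. Without male replicate 3 both were called higher, at 0.59 for Cebpb (edgeR adjusted p = 0.000693) and 0.58 for Cebpd (edgeR adjusted p = 4.36e-05), as they were by limma-voom. Of 8 acute phase genes tested, 3 were higher (Steap4, Hp and Cp) and 3 lower, with log2 fold changes of -3.63 ± 0.16 for Ptx3, -2.91 ± 0.13 for Serpina3n and -1.95 ± 0.13 for Lcn2. Of 12 cytokine and receptor genes tested, Ifngr2 was higher and Il6, Osmr and Tnfrsf1a were lower. Il6 had 8.96 ± 1.01 CPM in female libraries, beside 37.8 ± 5.67 CPM in male libraries (edgeR adjusted p = 1.91e-05). The calls of Ifngr2, Osmr, Tnfrsf1a, Hp and Cp were each lost without female replicate 2, without female replicate 3 and without male replicate 2, and some without other libraries (edgeR adjusted p up to 0.138).

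**Figure D4:**
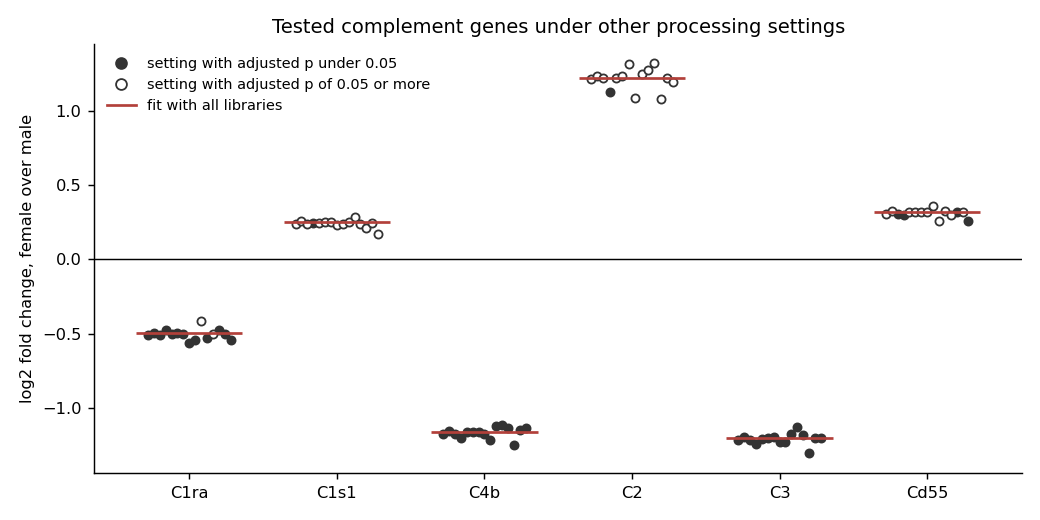
Log2 fold change of female over male (vertical axis) of the 6 tested genes with all libraries (line) and under 15 other settings (points; 14 for C2), filled where the adjusted p was under 0.05. C3 and C4b stay filled throughout, C1ra is open in 2 settings, and no gene crosses 0.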

How the data were processed

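Values are raw counts as the authors deposited them, 1 whole number per gene and library, with no scaling. The submitters' processing notes name HISAT2 2.0.5 and featureCounts 1.5; which build was aligned to, and whether counting used strand, is not given in the sources used here. Coordinates are those of the deposited table, and those of all 7 genes were the same in GENCODE M21 (GRCm38). Antisense and overlapping genes can share reads. Groups follow the labelled sex.

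The test was that of edgeR 4.0.16 under R 4.3.3 (quasi-likelihood F test, robust, TMM scaling, filterByExpr with minimum count 10), with Benjamini-Hochberg adjustment over all 14932 genes tested. The SE is the log2 fold change over the square root of F. CPM uses TMM-scaled totals, and gene lengths are those the authors deposited. Named genes were the 7, list genes with at least 1 CPM in either sex, called context genes, duplicates, neighbours and the 3 closest profiles. Genes named outside this rule, chosen after their values were seen, were Cfd, Itgam, C6, C7, C8a, C8b, C9, Cebpb, Cebpd and cell type markers that were not called. Some genes under this rule are not reported here. Members and lists were chosen with earlier results of these data known.

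Other settings were scaling by RLE or by upper quartile, limma-voom 3.58.1 with quality weights, DESeq2 1.42.0, other filters, an adjusted p under 0.01, the replicate number as a block and each library left out. Summing duplicates and a length and GC offset were added after seeing the data. Libraries of a sex differed by more than sampling noise (chi-square per degree of freedom 7.43 to 70.8).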

Additional observations from a re-analysis of the deposited data

How the results depend on the processing

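The log2 fold changes of C3 (-1.31 to -1.13) and C4b (-1.25 to -1.12) kept direction and call under all 16 alternatives. C1ra (-0.56 to -0.42), C1s1, C2 and Cd55 kept direction under those that could be fitted. C1s1 (adjusted p = 0.00494) and C2 (adjusted p = 0.0127) were called by limma-voom alone, and Cd55 also with the length and GC offset (edgeR adjusted p just under the threshold). The genes called higher among the 7 numbered 1 with DESeq2, 3 with limma-voom and 1 with the offset, and 0 to 1 on leaving out a library. Those called lower numbered 2 to 3 on leaving out a library. On the wider list 3 were higher with DESeq2, 6 with limma-voom, 2 with no filter, 2 with the replicate block and 3 with the offset. Those lower numbered 7, 9, 7, 5 and 7 in the same order, beside 6 by edgeR with all libraries. Over all tested genes, each of these settings called more than the 1446 higher and 1287 lower called by edgeR with all libraries. With no filter 25883 genes were tested. Whether the complement genes gained more calls than their share of these rises was not tested. A mean of at least 50 counts and an adjusted p under 0.01 each gave 4 lower. Leaving out a library gave 1 to 3 higher and 4 to 9 lower. Over all genes, limma-voom called 3305 higher and 3289 lower, an adjusted p under 0.01 left 900 and 835, and leaving out a library gave 967 to 2508 and 903 to 2543, most of all when male replicate 3 was dropped. What causes these shifts was not tested.

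Replicate numbers were not taken as pairing the libraries, since deviations of same-numbered libraries correlated at 0.300, -0.0533 and 0.197. The replicate block left 3 of the 7 genes lower and none higher, C1rb lost its call (edgeR adjusted p = 0.0622) and C3ar1 gained one (edgeR adjusted p = 0.0346). Counts of C2 and Cfb, at most 31 a library, limit what can be seen of either.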
